A study of Homo sapiens with 12 samples.

Results

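Inflammasomes are cytosolic protein complexes with which monocytes and macrophages answer signs of infection or damage. A sensor such as NLRP3, NLRC4 or AIM2 assembles, mostly through the adaptor ASC (encoded by PYCARD), a platform on which caspase-1 is activated, and caspase-1 then cleaves the precursors of interleukin-1β and interleukin-18 and the pore-forming protein gasdermin D. Caspase-4 and caspase-5 bind lipopolysaccharide (LPS) directly in the cytosol and cleave gasdermin D without a canonical sensor, while LPS acting through Toll-like receptor 4 at the cell surface is the classical priming signal that raises transcription of NLRP3 and of the interleukin-1β precursor. Pyroptosis, the lytic cell death that follows gasdermin D pores, is controlled largely at the level of protein cleavage, which transcript levels do not measure.

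The transcripts of these inflammasome and inflammatory caspase genes were followed in THP1 cells, an established human monocytic leukaemia cell line labelled as wild type. The 9 genes were chosen by name, from 58735 rows of the deposited count table: the sensors NLRP3, NLRC4 and AIM2, the adaptor PYCARD, the caspases CASP1, CASP4 and CASP5, the effector GSDMD and the cytokine IL18. THP1 cells were kept for 24 h in endothelial medium without endothelial cells (mono-culture), or in the upper chamber of a transwell insert with 1 µm pores above human umbilical vein endothelial cells (ECs) that were controls (the solvent DMSO is listed among the EC treatments), had been made senescent with the DNA-damaging drug etoposide (senECs), or had been given etoposide and epigallocatechin gallate (EGCG), a green tea catechin (EGCG-treated senECs). The THP1 cells of every group, mono-culture included, were then taken out and given LPS at 100 ng/ml during 2 h, so that unstimulated cells are not among the 12 libraries. Each group had 3 libraries, carrying replicate numbers 1, 2 and 3 in mono-culture and in the control EC group and 1, 2 and 5 in both senescent groups. Etoposide and EGCG were applied to the ECs before co-culture. A question the design addresses is whether senescent ECs alter the LPS response of monocytes across the membrane, and whether EGCG treatment of the ECs changes that.

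Totals per library lay between 15439836 and 22092600 counts (median 18153783). Levels are given in CPM, the count of a gene scaled to its library's total, and a count of 0 in the smallest library allows a level of up to 0.194 CPM, which covers counting error only. Monocyte markers were present in every group, with a summed level from 1162 to 1809 CPM over the 12 genes of the list, PTPRC (CD45, the common leukocyte antigen) and SPI1 (the myeloid factor PU.1) being the highest. The 12 endothelial markers summed to 155 to 243 CPM, mostly from PECAM1 (CD31, which monocytes also carry). Of the rest EGFL7 had 287 to 503 counts, ESAM 18 to 78, VWF 7 to 40, ERG 3 to 37 and TIE1 1 to 9, so that 6 of 12 were counted in every library, mono-culture included. KDR, TEK, CLDN5, ROBO4 and SOX18 had at most 10 counts and were at 0 in 1 to 6 libraries, and CDH5 (VE-cadherin) had at most 1 count and was at 0 in 10 of 12. Replicates differed beyond sampling noise (chi-square over its degrees of freedom 10.3 to 38.2), and none were merged. Nothing in the labels ties the libraries of a group to separate cultures, so that the p-values below measure the spread between these libraries, which may be technical.

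All 9 genes passed the filter of 10 counts over the 12 libraries, and 7 of 9 had a mean of at least 1 CPM. On a scale that also divides by exon length (FPKM, fragments per kilobase of exon and library size), PYCARD was highest at 26.8 ± 3.45 FPKM (SD, 12 libraries), followed by NLRP3 at 26.2 ± 1.34 FPKM and GSDMD at 22.4 ± 4.19 FPKM. These 3 neighbours in the order did not differ beyond their spread, as their libraries overlapped. CASP1 followed at 15.7 ± 2.56 FPKM and CASP4 at 7.68 ± 1.11 FPKM, CASP1 overlapping GSDMD and no library of CASP4 being as high as any of CASP1. The divisor is the length of all annotated exons of a gene merged, 3698 bases for CASP1 and 7256 for CASP4. The order depends on it. In CPM the means were 44.5 for PYCARD, 125 for NLRP3, 115 for GSDMD, 58.0 for CASP1 and 55.7 for CASP4. On that scale the libraries of CASP1 and CASP4 overlapped. IL18 stood at 3.79 ± 1.19 FPKM, below every library of CASP4. The remaining members were low, NLRC4 at 0.688 ± 0.155 FPKM, CASP5 at 0.244 ± 0.212 FPKM and AIM2 at 0.206 ± 0.102 FPKM, and CASP5 and AIM2 overlapped in level. Of the LPS-binding caspases, CASP4 was counted 12113 times and CASP5 83 times over the 12 libraries. In bulk RNA, more cells that express a gene and more of its RNA per cell cannot be told apart.

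**Figure D1:**
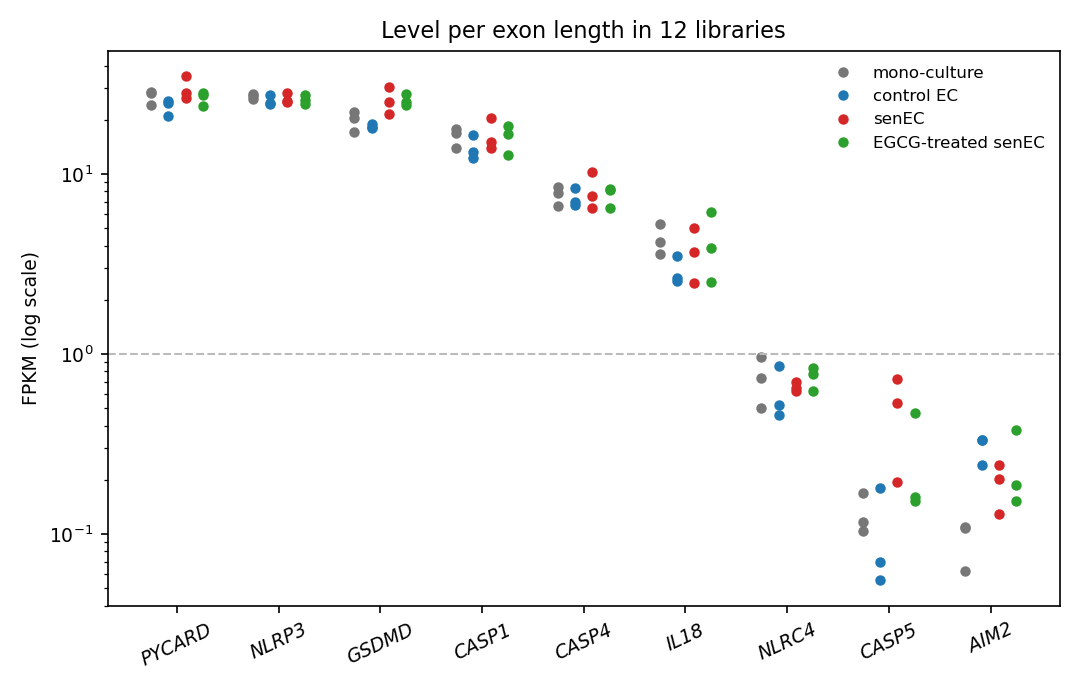
Level of each gene per exon length (FPKM, log scale) in the 12 libraries, coloured by group, with genes ordered by their mean and a dashed line at 1 FPKM. PYCARD, NLRP3 and GSDMD lie between 17.1 and 35.1 FPKM in every library, and every library of NLRC4, CASP5 and AIM2 is below 1 FPKM.

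No member was called in any of the 7 comparisons of groups by edgeR's quasi-likelihood test with Benjamini-Hochberg adjustment over 25873 genes at an adjusted p of 0.05. The share of all genes called was 0.143% for control ECs against mono-culture, 0.309% for senECs against mono-culture, 0.213% for EGCG-treated senECs against mono-culture and 0.723% for the mean of the 3 co-cultures against mono-culture. In each of the 3 contrasts between co-cultures 0.0% of genes were called, and DESeq2 called 0 members in all 7 as well, giving no adjusted p for AIM2 and CASP5 in the 4 comparisons with mono-culture. At an unadjusted p under 0.05, members numbered 2 of 9 (AIM2 and IL18) for control ECs against mono-culture, where 6.52% of all genes reached it, and 3 of 9 (GSDMD, CASP5 and PYCARD) for senECs against control ECs, where 6.61% did. It was 2 of 9 (GSDMD and CASP5) for senECs against mono-culture (11.0% of all genes), and 1 of 9 in each of 3 others, GSDMD for EGCG-treated senECs against mono-culture (8.58%) and against control ECs (4.55%) and AIM2 for the mean of the co-cultures against mono-culture (10.7%). The number was 0 of 9 for EGCG-treated senECs against senECs, where 2.22% of all genes reached it. The values that follow are therefore given with their spread and interval, and none is a change that passed the test.

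**Figure D2:**
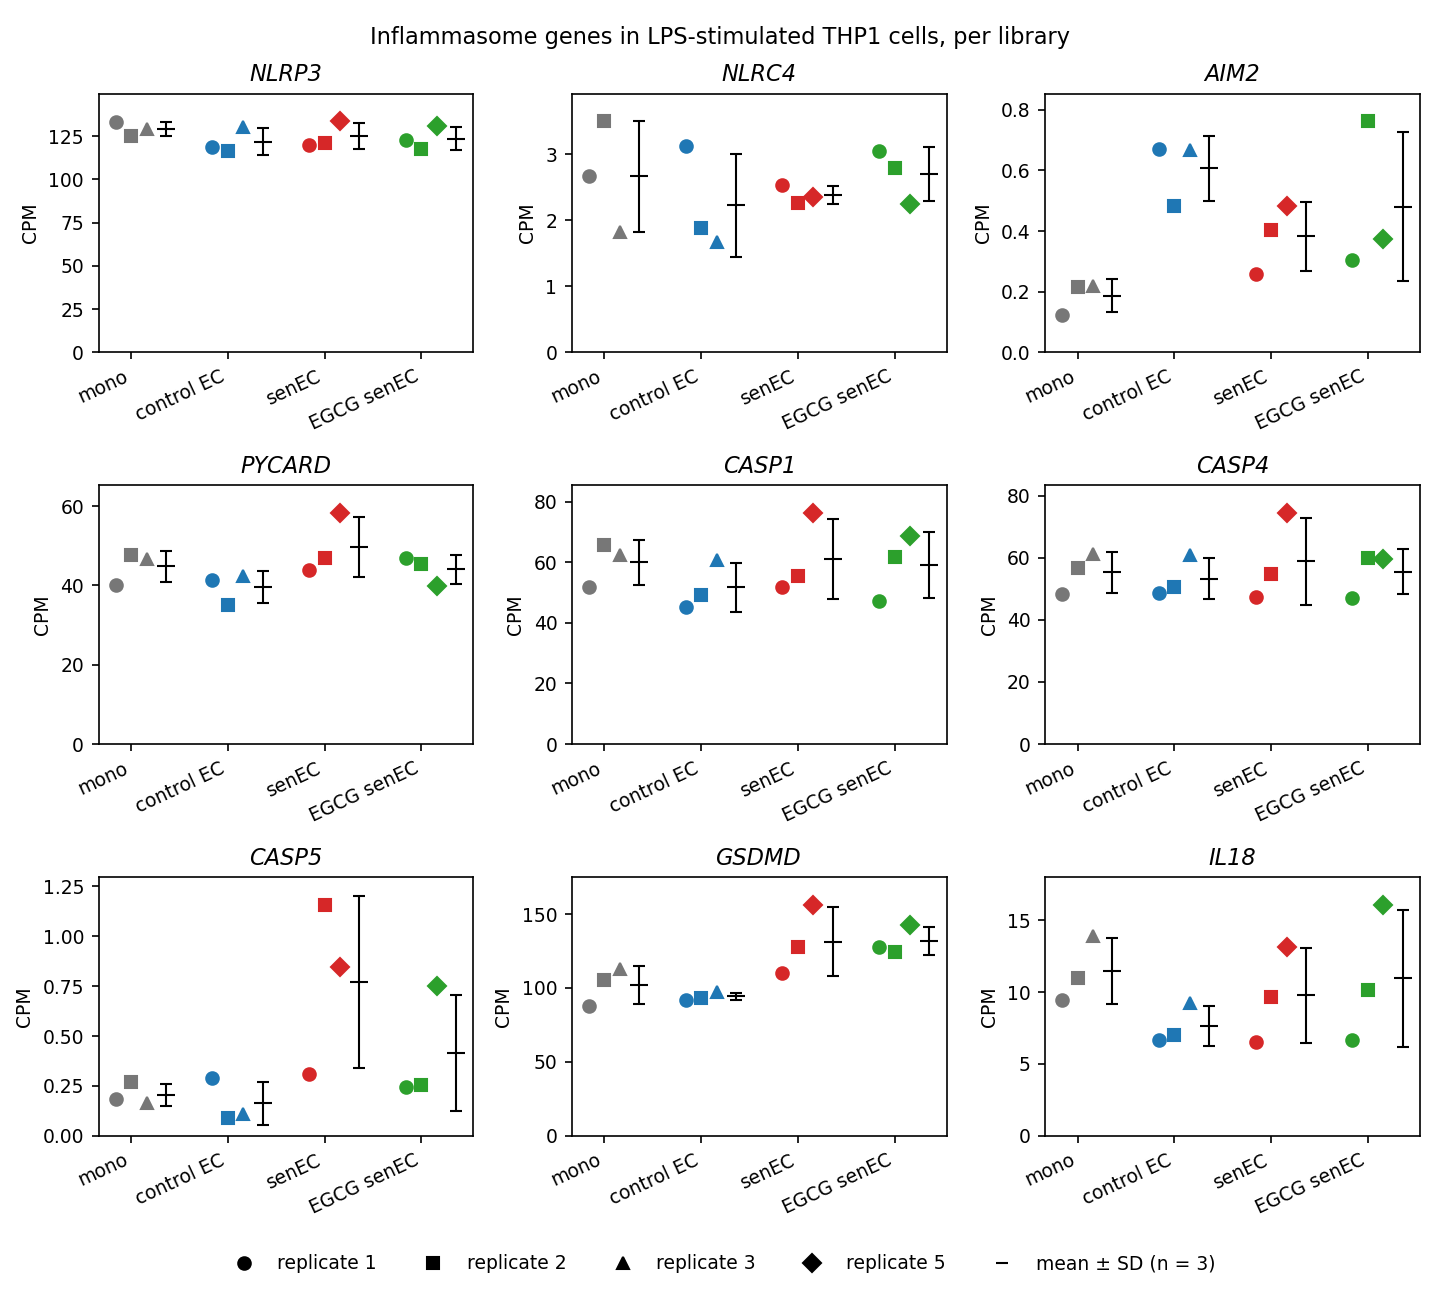
CPM of the 9 genes in each library by group, with replicate numbers as marker shapes and the group mean ± SD (n = 3) beside the points, on axes that start at 0. NLRP3 stays between 116 and 134 CPM in every library, GSDMD is higher in all libraries with senECs and EGCG-treated senECs than in any with control ECs, and AIM2 is lowest in the mono-culture libraries.

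NLRP3 (chr1:247416156-247449108, plus strand, GRCh38), the sensor of ion efflux and membrane damage, was the steadiest member. The mono-culture libraries had 133, 125 and 129 CPM, those with control ECs 118, 116 and 130 CPM, those with senECs 120, 121 and 134 CPM and those with EGCG-treated senECs 123, 117 and 131 CPM. The highest library was 1.15 times the lowest and all groups overlapped. The log2 fold change was -0.08 ± 0.09 (SE) for control ECs against mono-culture, 0.04 ± 0.09 for senECs against control ECs, while EGCG-treated senECs against senECs gave -0.01 ± 0.09. The 95% interval of the difference between senECs and control ECs ran from -0.16 to 0.23 on the log2 scale. It reflects the spread between these libraries only, and does not show that the LPS-stimulated level of this priming target was the same in those co-cultures.

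The sequence before the RefSeq start of NLRP3 is shown with that of CASP5, because these were the steadiest member and the member with the largest fitted difference, and because LPS priming acts on promoters. Each line holds the 250 bases before the start, in the direction of transcription, from RefSeq on GRCh38.p14, and promoter entries were matched for 6 of 9 members. Capitals mark matches on either strand to the core letters of an NF-kB site (GGG, any 5 bases, CC), of an interferon-stimulated response element (GAAA, any 2 bases, GAAA), of an AP-1 site (TGANTCA) or of a PU.1 site (GAGGAA).
NLRP3, chr1:247415923-247416172, plus strand: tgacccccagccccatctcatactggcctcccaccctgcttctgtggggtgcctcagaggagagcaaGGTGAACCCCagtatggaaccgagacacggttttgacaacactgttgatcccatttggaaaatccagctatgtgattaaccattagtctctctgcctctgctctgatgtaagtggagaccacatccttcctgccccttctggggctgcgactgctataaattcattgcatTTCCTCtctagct
CASP5, chr11:105023169-105023418, minus strand: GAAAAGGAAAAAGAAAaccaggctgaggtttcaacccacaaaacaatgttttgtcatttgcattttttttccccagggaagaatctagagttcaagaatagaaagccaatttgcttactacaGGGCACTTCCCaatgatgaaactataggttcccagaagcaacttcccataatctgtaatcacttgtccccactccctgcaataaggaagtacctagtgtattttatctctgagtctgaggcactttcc
The NLRP3 window held 1 match to the NF-kB letters at -183 to -174, counted in bases from the start, and 1 to the PU.1 letters at -13 to -8. The CASP5 window held 2 overlapping matches to the NF-kB letters between -128 and -118 and 2 overlapping matches to the interferon element letters between -250 and -235. Of 35116 promoter windows of the same length, 54.4% held the NF-kB letters, 23.6% the PU.1 letters, 6.57% the AP-1 letters and 3.02% the interferon element letters. The interferon element letters were also in the window of AIM2, with 1 match at -190 to -181, beside 1 match to the AP-1 letters, whereas none of these letter patterns was found in the CASP4 window. The PYCARD window, of 71.2% G and C against 40.4% for CASP5 and a median of 58% over all windows, held 4 matches to the NF-kB letters. All 250 bases of the PYCARD and CASP4 windows lie in annotated exons of a member or of PYCARD-AS1, as do 135 bases of the AIM2 window. Of the NLRC4 windows, 1 shares 111 bases with such exons and 1 shares 234. The last 17 bases of the NLRP3 window also lie in an annotated exon, and they hold its PU.1 match. These windows are therefore not purely upstream sequence, while that of CASP5 shares 0 bases with such exons. All matches given here are of letters, not sites shown to be bound.

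NLRC4 (chr2:32224453-32265854, minus strand), which with NAIP detects bacterial flagellin and secretion system proteins, was low in every group. Its counts ranged from 33 to 65 in mono-culture, from 30 to 65 with control ECs, from 39 to 49 with senECs and from 42 to 50 with EGCG-treated senECs. Group means were 2.66 ± 0.841, 2.23 ± 0.782, 2.38 ± 0.138 and 2.70 ± 0.407 CPM (SD, n = 3) in that order, and all groups overlapped. The 95% interval for senECs against control ECs, from -0.54 to 0.73 on the log2 scale, was wider than that of NLRP3.

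AIM2 (chr1:159062484-159147096, minus strand), the sensor of cytosolic double-stranded DNA, was counted 2, 4 and 4 times in the mono-culture libraries, 14, 11 and 12 times with control ECs, 5, 7 and 8 times with senECs and 5, 12 and 7 times with EGCG-treated senECs. Every co-culture library was above every mono-culture library, an arrangement that 1.77% of all tested genes also showed in the same direction and the co-culture groups overlapped one another. In CPM the mean was 0.187 ± 0.0540 for mono-culture (SD, n = 3), and the co-culture means were 0.607 ± 0.107 for control ECs, 0.382 ± 0.114 for senECs and 0.481 ± 0.247 for EGCG-treated senECs. The fitted log2 fold change was 1.65 ± 0.64 (SE) for control ECs against mono-culture (edgeR, adjusted p = 0.68) and 1.32 ± 0.56 for the mean of the co-cultures against mono-culture (edgeR, adjusted p = 0.408). From the counts alone the co-cultures together were 2.58 times the mono-culture, with an exact 95% interval from 1.33 to 5.59 that covers counting error only. With 10 counts over 3 libraries, the mono-culture level lies near the limit that a count of 0 allows.

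PYCARD (chr16:31201485-31203450, minus strand) encodes ASC, the adaptor that links NLRP3 and AIM2 to caspase-1. Its libraries had 40.2, 47.6 and 46.6 CPM in mono-culture, 41.4, 35 and 42.4 CPM with control ECs, 43.8, 47.0 and 58.3 CPM with senECs and 46.9, 45.4 and 39.8 CPM with EGCG-treated senECs. The libraries with senECs were all above those with control ECs, as for 5.31% of all tested genes, and both groups overlapped the others. The log2 fold change was 0.33 ± 0.12 (SE) for senECs against control ECs (edgeR, adjusted p = 0.728, 95% interval 0.07 to 0.59), and 0.20 without senEC replicate 5, the highest of the 12 libraries. For EGCG-treated senECs against senECs it was -0.17 ± 0.12, with an interval from -0.43 to 0.09, and -0.0438 without senEC replicate 5. In the annotation 991 exon bases of PYCARD (59.7%) are shared with the antisense gene PYCARD-AS1, and since the sources used here do not state whether counting used strand, reads of the pair may not be told apart.

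CASP1, CASP4 and CASP5 lie side by side on the minus strand of chromosome 11 (CASP4 at 104942866-104969436, CASP5 at 104994235-105023168 and CASP1 at 105025443-105035250, GRCh38). They are related genes, so that reads from shared stretches could be split among them or lost by the counting. CASP1, the protease that matures interleukin-1β and interleukin-18, had 51.7, 65.7 and 62.4 CPM in mono-culture, 45.2, 49.3 and 60.7 CPM with control ECs, 51.7, 55.4 and 76.2 CPM with senECs and 47.2, 61.8 and 68.5 CPM with EGCG-treated senECs. All groups overlapped. The difference between senECs and control ECs, 0.24 ± 0.16 (SE) on the log2 scale, was 0.05 without senEC replicate 5.

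CASP4, whose protein is the main receptor of cytosolic LPS in human cells, followed CASP1 closely. It stood at 48.2, 56.6 and 61.1 CPM in mono-culture, 48.6, 50.5 and 60.7 CPM with control ECs, 47.2, 54.9 and 74.4 CPM with senECs and 47.1, 60.0 and 59.5 CPM with EGCG-treated senECs. The groups overlapped, and the log2 fold change was -0.06 ± 0.15 (SE) for control ECs against mono-culture, 0.14 ± 0.15 for senECs against control ECs, while EGCG-treated senECs against senECs gave -0.08 ± 0.15. The replicate 1 library was the lowest of its group in all 4 groups for CASP1, for CASP4 and for IL18, that is for 3 of 9 members, while this held for 5.41% of all tested genes.

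CASP5, the second LPS-binding caspase and itself an LPS-responsive gene, was counted 3, 5 and 3 times in the mono-culture libraries, 6, 2 and 2 times with control ECs, 6, 20 and 14 times with senECs and 4, 4 and 14 times with EGCG-treated senECs. In CPM the lowest library with senECs (0.310) was just above the highest with control ECs (0.288) and the highest of mono-culture (0.269), while EGCG-treated senECs overlapped every other group. Among all tested genes, 8.18% had every library with senECs above every mono-culture library and 5.31% had them above every library with control ECs. The log2 fold change was 2.19 ± 0.74 (SE) for senECs against control ECs (edgeR, adjusted p = 0.728), while EGCG-treated senECs against senECs gave -0.85 ± 0.69 (edgeR, adjusted p = 1), with a 95% interval from -2.29 to 0.58. With 1 library left out at a time the first value ran from 1.78 (without senEC replicate 2) to 2.87 (without control EC replicate 1), and the second from -1.60 (without EGCG-treated senEC replicate 5) to -0.44 (without senEC replicate 2). From the counts alone the level with senECs was 4.63 times that with control ECs (exact 95% interval 2.28 to 10.4, counting error only), resting on 40 against 10 counts. That interval leaves out the spread between libraries, which ran from 6 to 20 counts with senECs.

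GSDMD (chr8:143553207-143563062, plus strand) encodes gasdermin D, whose cleaved fragment forms the pores through which interleukin-1β leaves the cell. It had 87.6, 105 and 113 CPM in mono-culture, 92.2, 93.5 and 97.3 CPM with control ECs, 110, 128 and 156 CPM with senECs and 128, 124 and 142 CPM with EGCG-treated senECs. All 6 libraries with senescent ECs, treated or not, were above the 3 with control ECs, and those with EGCG-treated senECs were also above every mono-culture library (as for 6.4% of all tested genes), while those with senECs overlapped mono-culture. Means were 102 ± 13.1, 94.3 ± 2.65, 131 ± 23.3 and 132 ± 9.52 CPM (SD, n = 3) in the order of the groups.

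The log2 fold change of GSDMD was 0.48 ± 0.12 (SE) for senECs against control ECs (95% interval 0.22 to 0.73, edgeR, unadjusted p = 0.000919, adjusted p = 0.728). For EGCG-treated senECs against the same controls it was 0.48 ± 0.12 (95% interval 0.22 to 0.74, edgeR, unadjusted p = 0.000883, adjusted p = 0.979). Both contrasts share the control EC libraries. Between EGCG-treated senECs and senECs the difference was 0.00 ± 0.12, with an interval from -0.25 to 0.26. No overlap in the higher direction was also seen for 5.31% of all tested genes in the first contrast and 4.04% in the second. When all 34767 genes with a count were tested, GSDMD was called for senECs against control ECs (log2 fold change 0.48, edgeR, adjusted p = 0.0189), where 0.328% of genes were, and likewise for EGCG-treated senECs against these controls (0.47, edgeR, adjusted p = 0.0439), where 0.124% were. Without senEC replicate 5 the first difference was 0.34. The summed level of the endothelial marker list was higher in the same groups. It ranged from 155 to 176 CPM with control ECs, 196 to 236 CPM with senECs and 187 to 243 CPM with EGCG-treated senECs, against 157 to 183 CPM in mono-culture. Most of it was PECAM1, at 142 ± 10.7 CPM with control ECs and 187 ± 21.2 CPM with senECs (SD, n = 3). EGFL7, next in level, stood at 19.4 ± 2.05 CPM in mono-culture and 21.2 ± 0.926 CPM with control ECs, and at 25.2 ± 4.55 CPM (senECs) and 22 ± 1.03 CPM (EGCG-treated senECs) in the senescent groups. Of 11 tested genes of the list edgeR called 0, as did DESeq2, and 2 had an unadjusted p under 0.05 for senECs against control ECs. In that contrast 5 of the 11 had a log2 fold change above 0, with a median of -0.14, many of them at very low counts. For senECs against mono-culture 6 of the 11 were above 0, with a median of 0.32. Against control ECs the log2 fold change of PECAM1 was 0.40 ± 0.13 (SE) with senECs (edgeR, adjusted p = 0.728). With EGCG-treated senECs it was 0.35 ± 0.13 (edgeR, adjusted p = 0.979). The markers at 0 in every library of a group were CDH5 with senECs and CDH5 and ROBO4 with control ECs, and none in the other groups. The part of these markers in the GSDMD result was not tested.

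IL18 (chr11:112143251-112164117, minus strand), the cytokine that caspase-1 matures and that is made without the strong LPS induction of interleukin-1β, had 9.45, 11.0 and 13.9 CPM in mono-culture and 6.67, 6.99 and 9.23 CPM with control ECs. With senECs it had 6.56, 9.66 and 13.1 CPM, and with EGCG-treated senECs 6.64, 10.2 and 16.1 CPM. Every library with control ECs was below every mono-culture library, as for 6.51% of all tested genes, although the highest of the former (9.23 CPM) was close to the lowest of the latter (9.45 CPM). The log2 fold change was -0.59 ± 0.27 (SE) for control ECs against mono-culture (95% interval -1.16 to -0.02, edgeR, adjusted p = 0.754). The co-cultures overlapped one another, and the difference between senECs and control ECs was 0.36 ± 0.28 (0.0886 without senEC replicate 5). Between EGCG-treated senECs and senECs it was 0.17 ± 0.27, and -0.22 without EGCG-treated senEC replicate 5.

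**Figure D3:**
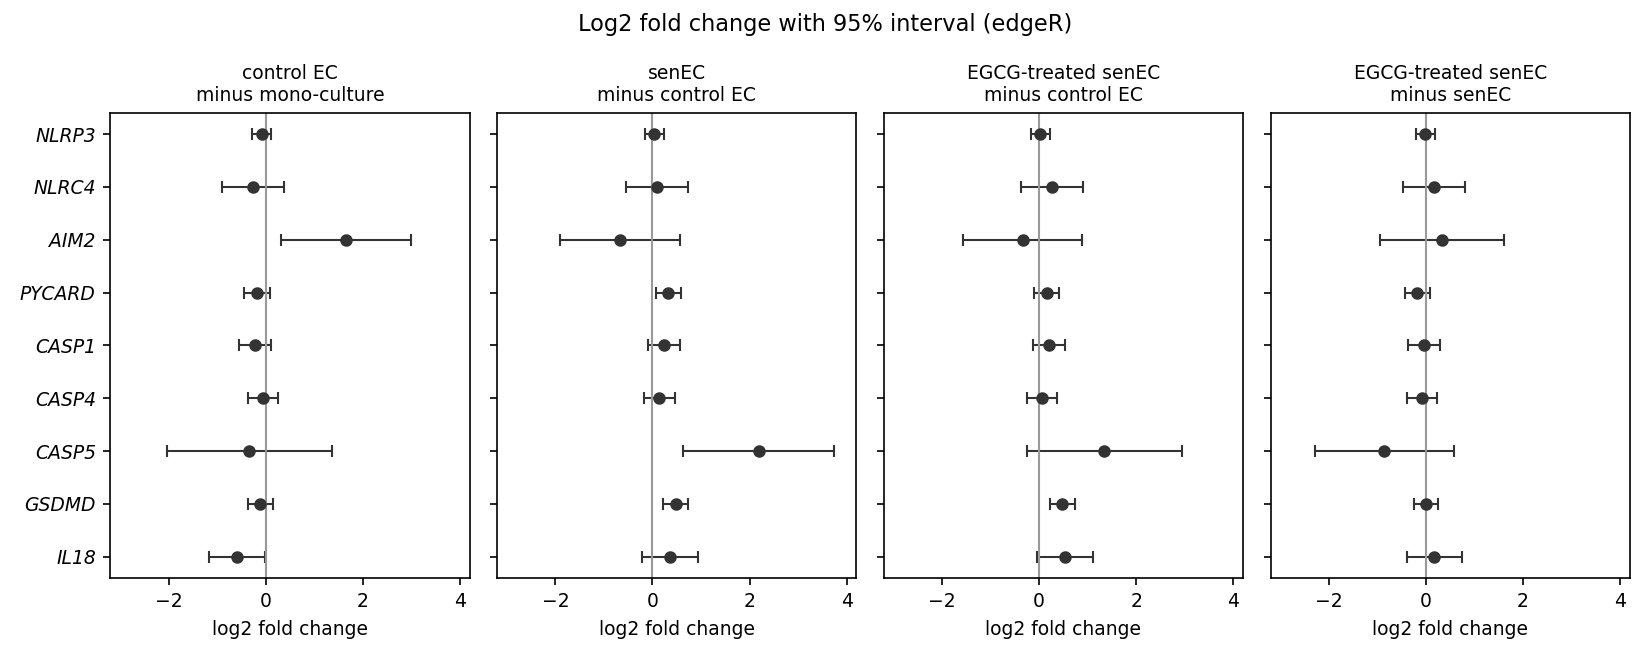
Log2 fold changes of the 9 genes in 4 comparisons (x axis, log2 scale), with 95% intervals from edgeR in the model of all 12 libraries. The intervals of GSDMD, CASP5 and PYCARD lie above 0 for senECs against control ECs and all 9 cross 0 for EGCG-treated senECs against senECs, with no member passing the adjusted threshold in any panel.

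Seen as a list, 8 of 9 members had a log2 fold change above 0 for senECs against control ECs, with a median of 0.24 beside a median of -0.01 over all genes tested. The same count for EGCG-treated senECs against control ECs, which shares the control libraries, was 8 of 9 with a median of 0.20 beside 0.00. For control ECs against mono-culture 1 of 9 was above 0, AIM2, and the median was -0.18 beside 0.01. For EGCG-treated senECs against senECs 4 of 9 were above 0, with a median of -0.01. The members cannot be counted as independent of one another, since they come from the same libraries. For 5 of them, NLRP3, PYCARD, CASP1, CASP4 and GSDMD, the highest of the 12 libraries was senEC replicate 5. The share of all genes with that pattern was not computed, so the count is not read as a trait of the members. Among pairs of replicates, senEC replicates 1 and 5 differed most (chi-square over its degrees of freedom 38.2). These values concern the library senEC replicate 5. Without that library 6 of 9 were above 0 for senECs against control ECs, with a median of 0.0886, NLRP3 (-0.0144) and CASP4 (-0.0605) having changed sign, and 7 of 9 for EGCG-treated senECs against senECs, with a median of 0.14. Over all the fits without 1 library the first count ran from 6 to 8 and the second from 2 to 7.

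**Figure D4:**
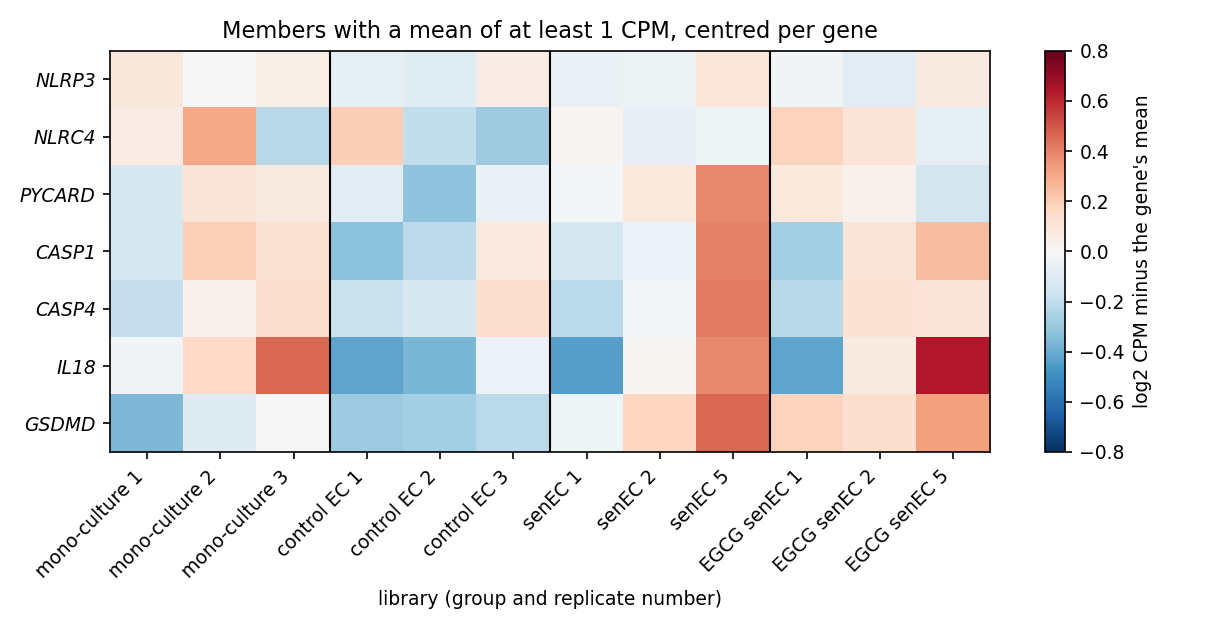
Log2 CPM (with a pseudocount of 2) minus the mean of each gene, for the 7 members with a mean of at least 1 CPM, in the 12 libraries. CASP1, CASP4 and IL18 are lowest in the replicate 1 library of every group, and GSDMD is below its mean in all libraries with control ECs and above it in 5 of the 6 libraries with senECs and EGCG-treated senECs.

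Likeness was measured as the root mean square difference of centred log2 CPM over the 12 libraries, so that a small value means a similar pattern. Among the members CASP1 and CASP4 were most alike, at 0.0872, while NLRC4 and IL18 were least alike, at 0.430. Over 14397 genes with a mean of at least 1 CPM, the nearest to CASP4 were MYL12A (0.0404), RPL15 (0.0407) and RPL10A (0.0458), and the nearest to CASP1 were GLO1 (0.0616), UGP2 (0.0760) and HLA-E (0.0773). The nearest to IL18 were CSF1R (0.143), HLA-DRB1 (0.153) and MAP1LC3A (0.154). For GSDMD they were SH3BGRL3 (0.0972), DEDD2 (0.106) and AC107068.1 (0.107), for PYCARD BAX (0.0637), C19orf70 (0.0656) and RFXANK (0.0659), for NLRP3 RABL3 (0.0508), SFPQ (0.0511) and DYRK1A (0.0519), and for NLRC4 NRM (0.0939), NEK2 (0.0947) and NECAB3 (0.10). The distances are to be read beside the variation of each member, which was smallest for NLRP3, a root mean square of 0.0693 around its own mean, and largest for IL18, at 0.352.

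The genes around the pathway were taken from lists by role. Of 12 tested genes among the other sensors and adaptors, edgeR and DESeq2 called 0 in any of the 7 comparisons, and 0 to 5 had an unadjusted p under 0.05 with edgeR, CARD8 (a sensor that restrains or activates caspase-1), MEFV (pyrin) and DHX33 having the highest mean CPM, at 79.3, 55.1 and 48.5. NAIP, the partner of NLRC4, had a log2 fold change of 1.51 ± 0.44 (SE) for control ECs against mono-culture (edgeR, adjusted p = 0.34). NAIP falls outside the rule for naming list genes and was chosen after its values were seen.

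Among the regulators of assembly, 15 genes were tested and edgeR called 1, TRIM31, whose protein is known to ubiquitinate NLRP3. It stood at 6.28, 9.15 and 6.83 CPM in mono-culture, 2.97, 3.47 and 3.50 CPM with control ECs, 3.56, 4.86 and 3.57 CPM with senECs and 2.80, 4.07 and 1.71 CPM with EGCG-treated senECs. Every co-culture library was below every mono-culture library, as for 1.64% of all tested genes. TRIM31 fell by 1.15 ± 0.20 (SE) on the log2 scale for the mean of the co-cultures against mono-culture (edgeR, adjusted p = 0.00771) and by 1.38 ± 0.27 for EGCG-treated senECs against mono-culture (edgeR, adjusted p = 0.0382). The first call was lost without the replicate 2 library of mono-culture (adjusted p = 0.158), and the second without any 1 of the mono-culture libraries or without replicate 1 or 5 of the EGCG-treated senECs, at adjusted p from 0.0580 to 0.240 with edgeR. DESeq2 called TRIM31 in both comparisons and for control ECs against mono-culture. TXNIP, which links oxidative stress to NLRP3, NEK7, which NLRP3 needs for assembly, and the channel PANX1 had the highest means of the list at 556, 91.7 and 68.3 CPM, and neither tool called any of them.

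Of 9 tested effectors of pyroptosis and membrane repair, 0 were called in any comparison by edgeR or DESeq2 and 0 or 1 had an unadjusted p under 0.05 with edgeR, among them HMGB1 (a nuclear protein released on lysis), NINJ1 (which ruptures the membrane) and CHMP4B (which repairs it), at means of 685, 97.8 and 93.2 CPM. Of the 12 interleukin-1 family cytokines and interleukin-18 partners edgeR called 0, although 3 had an unadjusted p under 0.05 in each of the 4 comparisons with mono-culture. DESeq2 called 3, all higher, for the mean of the co-cultures against mono-culture, IL18RAP (a chain of the interleukin-18 receptor), IL1R1 (the signalling interleukin-1 receptor) and IL1RAP (its co-receptor), which are outside the rule for naming list genes. Their log2 fold changes there were 1.09 ± 0.31 for IL18RAP, 0.89 ± 0.24 for IL1R1 and 0.48 ± 0.14 for IL1RAP with edgeR (SE, adjusted p = 0.145, 0.134 and 0.16), and the adjusted p with DESeq2 was 0.0326, 0.0258 and 0.0459. IL1B, the other substrate of caspase-1, varied widely within every group, from 131 to 172 CPM in the replicate 1 libraries, 231 to 270 CPM in those of replicate 2 and 611 to 866 CPM in those of replicates 3 and 5, the mono-culture mean being 337 ± 247 CPM (SD, n = 3) and those of the co-cultures 348 ± 284 CPM for control ECs, 424 ± 384 CPM for senECs and 388 ± 315 CPM for EGCG-treated senECs. At this spread its difference between senECs and control ECs, 0.28 ± 0.62 (SE) on the log2 scale, had an interval from -1.02 to 1.59 in the model with the group alone. Likewise 0 of 17 apoptotic caspases and death adaptors were called by edgeR or DESeq2 and 0 to 5 had an unadjusted p under 0.05 with edgeR, CFLAR, BID and BIRC2 having the highest means at 224, 98.8 and 90.8 CPM.

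Of 22 genes of LPS sensing and priming, edgeR called 1, CD14, the co-receptor that hands LPS to Toll-like receptor 4. It had 5.91, 9.91 and 11.0 CPM in mono-culture, 12.4, 18 and 26.2 CPM with control ECs, 16.6, 32.3 and 65.7 CPM with senECs and 12.8, 28.1 and 41.6 CPM with EGCG-treated senECs. All co-culture libraries were above all mono-culture libraries, as for 1.77% of all tested genes, and the co-cultures overlapped. CD14 rose by 2.09 ± 0.42 (SE) on the log2 scale for senECs against mono-culture (edgeR, adjusted p = 0.0363) and by 1.59 ± 0.37 for the mean of the co-cultures (edgeR, adjusted p = 0.0492). The first call was lost when any 1 of the mono-culture libraries, control EC replicate 2, EGCG-treated senEC replicate 2 or senEC replicate 2 or 5 was left out, with log2 fold changes from 1.44 (without senEC replicate 5) to 2.25 and adjusted p from 0.0508 to 0.251 with edgeR. The second was lost without any 1 of the mono-culture libraries, control EC replicate 2 or 3, senEC replicate 2 or EGCG-treated senEC replicate 2 or 5, with log2 fold changes from 1.37 to 1.76 and adjusted p from 0.0677 to 0.256 with edgeR. CD14 is also on the list of monocyte markers, where FCGR1A (the high-affinity immunoglobulin receptor CD64) was called for the mean of the co-cultures against mono-culture as well (0.55 ± 0.12, edgeR, adjusted p = 0.0348), a call that was lost without any 1 of the mono-culture libraries, EGCG-treated senEC replicate 2 or 5 or control EC replicate 3, at adjusted p from 0.0581 to 0.207. TNFAIP3, NFKBIA and IRAK1 had the highest means of the LPS list at 1157, 536 and 471 CPM, and edgeR called none of them.

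DESeq2 called 3 genes of the LPS list, all higher, for senECs and for the mean of the co-cultures against mono-culture, namely CD14, IRAK1 (a kinase of the Toll-like receptor pathway) and MYD88 (the adaptor that recruits it), and IRAK1 also for EGCG-treated senECs against mono-culture. For IRAK1 the adjusted p was 0.0111, 0.00756 and 0.039 in that order with DESeq2, where edgeR gave log2 fold changes of 0.36 ± 0.10, 0.29 ± 0.08 and 0.32 ± 0.10 (SE) and an adjusted p of 0.142, 0.134 and 0.27. MYD88, which is outside the rule for naming list genes, had an adjusted p of 0.0128 and 0.0221 with DESeq2, against 0.103 and 0.133 with edgeR at log2 fold changes of 0.44 ± 0.11 and 0.33 ± 0.09 (SE). The calls on these genes therefore depended on the tool.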

How the data were processed

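mRNA sequencing was compared in 12 libraries of LPS-stimulated THP1 cells in 4 groups of 3, grouped by the sample titles. The values are counts of reads for each gene symbol that the authors deposited unnormalized. Reads had been aligned with HISAT2, and the submitters' processing notes name hg38, while the counting program and its strand setting are not given in the sources used here. Another 4 columns of the table belong to none of the described samples and were not used. All 57169 distinct symbols match GENCODE release 29 (GRCh38), which gave positions and exon lengths. Library totals ranged from 15439836 to 22092600 counts.

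Differences were tested with edgeR 4.0.16 (R 4.3.3) by quasi-likelihood after TMM scaling, with Benjamini-Hochberg adjustment, in 1 model of the 12 libraries whose only term was the group, over the 25873 genes with at least 10 counts in total, at an adjusted p of 0.05. Standard errors are the log2 fold change over the square root of F. CPM used TMM library sizes (factors 0.912 to 1.04), log2 CPM a pseudocount of 2. DESeq2 1.42.0, its size factors, library totals, all genes with a count, edgeR's own filter, the compared libraries only, a replicate block and each library left out in turn were the alternatives. The fits were tested on simulated data. Promoters came from RefSeq (GRCh38.p14), and no sequence is shown where a window shares over 30 bases with exons of a member. Tables were made with Python 3.11.15.

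The members and lists were chosen with earlier results of these data known. Genes named are all members and, per list, up to 4 called genes per direction and the 3 with the highest mean CPM. Exceptions are named as such.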

Additional observations from a re-analysis of the deposited data

How the results depend on the processing

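No member was called in any of the 7 comparisons under DESeq2, its size factors in edgeR, library totals, edgeR's own filter, the compared libraries only (not defined for the mean of the co-cultures) or any of the 12 fits without 1 library (0 to 0 members called). Testing all genes with a count called 1 member, GSDMD, against control ECs in the senEC and in the EGCG-treated senEC co-culture.

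The replicate numbers did not meet the condition for pairing, a correlation over 0.1 in every pair. Same-numbered libraries of different groups had correlations of their deviations from 0.0319 to 0.577 over 14 pairs, different numbers from -0.56 to 0.534 over 40, of which the 4 pairs of number 3 with number 5 gave 0.37 to 0.534, and 8 of 12 libraries correlated best with their own number. With the replicate block, 1 member was called for control ECs against mono-culture (IL18, -0.58, edgeR, adjusted p = 0.0234), 1 for senECs against control ECs (GSDMD, 0.42, edgeR, adjusted p = 0.0149), 1 for EGCG-treated senECs against the same controls (GSDMD, 0.43, edgeR, adjusted p = 0.025), and 0 in the other 4 comparisons. The block held numbers 3 and 5 as separate levels, and control ECs share only numbers 1 and 2 with the senescent groups. Its direct comparisons between them rest on those numbers, while numbers 3 and 5 enter the fitted differences only through the other groups. For senECs against control ECs, GSDMD differed by 0.25 in number 1 and 0.44 in number 2 (log2 CPM). In the order control ECs, senECs, EGCG-treated senECs and mean of the co-cultures, each against mono-culture, then senECs against control ECs, EGCG-treated senECs against senECs and EGCG-treated senECs against control ECs, the block called 469, 709, 424, 824, 153, 13 and 34 of all genes, where the main test called 37, 80, 55, 187, 0, 0 and 0. Of the genes on the 6 pathway lists, in the same order, it called 10, 8, 6, 12, 1, 0 and 0, where the main test called 0, 1, 1, 2, 0, 0 and 0. Among the genes it called in 1 or more of these, CD14, IRAK1, MYD88, IL18RAP, IL1R1, IL1RAP and NAIP were higher and TRIM31, KCNK6, GBP3, GBP4, CASP10 and APAF1 lower. Of these, KCNK6, GBP3, GBP4, CASP10 and APAF1 are also outside the rule for naming list genes. IL1B was at 0.16 ± 0.10 (SE) for senECs against control ECs with the block, with a 95% interval from -0.04 to 0.35. Standard errors with the block were nearly alike across well-counted genes. For control ECs against mono-culture they were 0.0849 for TNFAIP3, 0.0867 for HMGB1 and 0.0886 for IL1B. They appear to follow a spread shared among genes. The block's intervals and p-values may therefore say little on the spread of each gene between libraries. Comparisons of replicate numbers were planned only for numbers that pair and were not run.

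In the same order, testing all genes with a count called 223, 588, 377, 582, 114, 14 and 43 genes. Against mono-culture, the calls by DESeq2 numbered 116, 339, 226 and 439 over all genes and 1, 3, 2 and 7 pathway list genes. The compared libraries alone called 20 for senECs and 35 for EGCG-treated senECs against mono-culture. Without 1 library, the calls over all genes ranged from 11 to 48, 22 to 260, 12 to 104 and 37 to 259 in the 4 comparisons with mono-culture, lowest without mono-culture replicate 2 each time, and from 0 to 1, 0 to 0 and 0 to 1 among the co-cultures. The cause of these shifts was not tested.

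Of 29 log2 fold changes of members followed under the alternatives, 11 took the opposite sign at least once, none of them called. With library totals NLRP3 was at -0.0241 for senECs against control ECs, while EGCG-treated senECs against senECs gave 0.0202, with the block NLRC4 was at -0.0232 for senECs against control ECs, and with all genes with a count GSDMD was at -0.0114 for EGCG-treated senECs against senECs. Leaving out 1 library, control ECs against mono-culture ranged from -0.58 to 0.00047 for NLRC4 and from -0.16 to 0.0268 for CASP4. For senECs against control ECs the ranges were -0.0144 to 0.0898 for NLRP3, -0.0682 to 0.409 for NLRC4 and -0.0605 to 0.267 for CASP4. For EGCG-treated senECs against senECs they were -0.0583 to 0.0366 for NLRP3, -0.15 to 0.56 for AIM2, -0.16 to 0.14 for CASP1, -0.22 to 0.12 for CASP4, -0.11 to 0.15 for GSDMD and -0.22 to 0.44 for IL18. AIM2, CASP5 and NLRC4 are limited by their low counts.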
